A study of Mus musculus with 8 samples.

Results

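The genes described here encode CTCF and the cohesin complex with its loader and release factors: Ctcf, Smc1a, Smc3, Rad21, Stag1, Stag2, Nipbl, Wapl, Pds5a and Pds5b. They were taken by gene symbol from a table of nascent transcription, and all 10 of the 10 symbols were found among its 14861 genes. The values come from PRO-seq, which lets engaged RNA polymerases add biotin-tagged nucleotides to the RNA they are making, so that the signal over a gene reads transcription in progress. The cells were mouse induced pluripotent stem cells of a clonal line carrying the FUCCI2 cell-cycle reporter, all kept on irradiated feeder cells in medium with FBS, LIF and inhibitors of MEK and GSK3. Mitotic cells were arrested for 6 h in nocodazole, which depolymerizes microtubules (200 ng/ml), and shaken off, early G1 cells had then been released into fresh medium for 1 h and late G1 cells for 3 h, and asynchronous cells were untreated.

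Cohesin is a ring of the ATPases SMC1A and SMC3 and the kleisin RAD21, to which a STAG subunit binds. It holds sister chromatids together from replication until anaphase, and in interphase it extrudes chromatin loops that CTCF, a zinc finger protein bound to its DNA motif, halts at domain borders. Most cohesin leaves chromosomes in mitosis, and loops and domains are rebuilt as cells enter G1. The series asked how transcription and genome architecture are reset as these stem cells enter G1.

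There were 8 libraries in 4 groups of 2 by the labels, but the table holds 1 value per gene and group, with no word on how libraries were combined, so no difference below has a replicate check, a p-value or an error, and the depth is unknown. Which column belongs to which release was taken from the column names, early G1 as the 1 h release and late G1 as the 3 h release. The authors' scaling gave the mitotic column a total of 16863, next to 361203 in early G1, then 326086 in late G1, against 309144 in asynchronous cells. In such bulk samples, fewer cells of a type and less RNA per cell cannot be told apart. Of 10 markers of pluripotent cells 9 were in the table and none was at 0, with a summed signal of 55.9 in mitosis, 1279 in early G1, then 1230 in late G1, against 1116 in asynchronous cells. Of 20 fibroblast markers, chosen for the feeder cells, 10 were in the table, with sums of 6.21, 170.2, 162.9 and 118.7 in the same order of groups, and Twist1 was listed at 0 in mitosis. Fn1 alone (3.26, 105.9, 61.3 and 53.4) was the largest part of each sum. The medians of the 10 markers were 0.136, 2.22, 7.16 and 5.30, so they rose from early to late G1 while the sums did not. Of these 10, 6 were at least 2-fold higher in late than in early G1, against 15.1% of all genes. Whether feeder cells or the exposure to nocodazole, which of the 4 groups only the asynchronous cells lacked, had a part in the values below was not tested.

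Every member shared 1 profile: very low in mitosis, highest in early G1 and lower again in late G1. Early G1 was the highest of the 4 columns for 10 of 10 members, against 44.6% of the 14430 genes with a signal above 0 in all columns. In 8 of the 10 the order was early G1, late G1, asynchronous, mitosis (28.8% of genes). Rad21 and Stag2 had late G1 below asynchronous instead (15.7% of genes). The authors' table, which sorts genes into 4 temporal classes, puts all 10 in the class Early_Spike, which holds 33.6% of the table, against 26.3% in Early_Plateau, 24.7% in Transient and 15.4% in Gradual, where none of the members lay. How genes were put in these classes is not stated, so class and profile are not given as separate results.

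**Figure D1:**
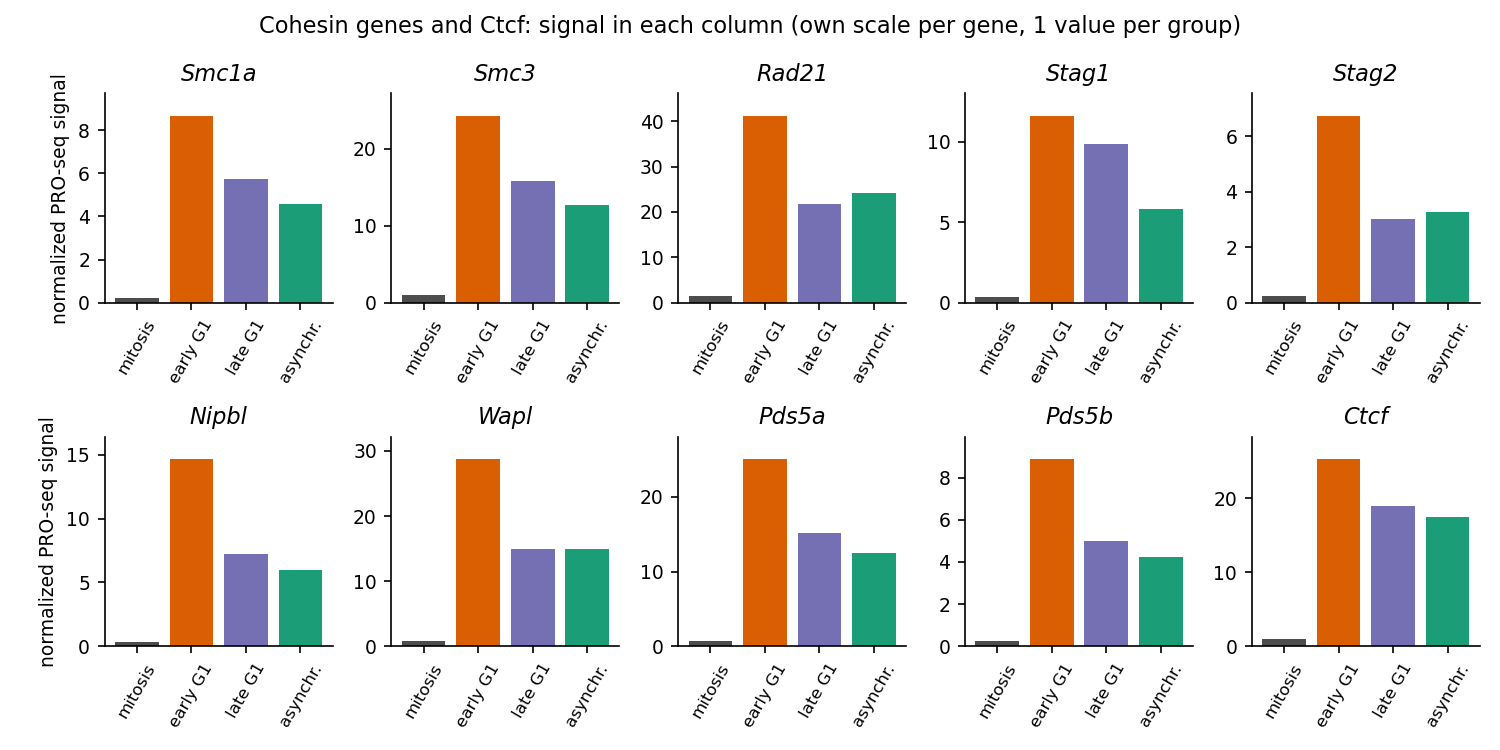
Normalized PRO-seq signal (vertical axes, each gene on its own scale from 0) of the 10 members in mitosis, early G1, late G1 and asynchronous cells; each bar is the authors' 1 value per group. In every panel the early G1 bar is the tallest and the mitotic bar the shortest.

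Since the members shared 1 profile, promoters are shown before each member is described by role. RefSeq sequence of 250 bases before to 50 bases after a start given by RefSeq (GRCm38.p6) was at hand for 7 of the 10, namely Ctcf, Smc1a, Smc3, Stag1, Wapl, Pds5a and Pds5b. Those of Ctcf (chr8:105636288-105636587, plus strand), Smc1a (chrX:152016178-152016477, plus strand), Smc3 (chr19:53600146-53600445, plus strand) and Wapl (chr14:34673678-34673977, plus strand) are printed 5′ to 3′, with matches to GGGCGG, the core of the SP1 motif, or to its reverse complement CCGCCC in capitals. This motif is marked because all 7 promoters held it, and these 4 stand for DNA binding, both ring ATPases and release.
Ctcf: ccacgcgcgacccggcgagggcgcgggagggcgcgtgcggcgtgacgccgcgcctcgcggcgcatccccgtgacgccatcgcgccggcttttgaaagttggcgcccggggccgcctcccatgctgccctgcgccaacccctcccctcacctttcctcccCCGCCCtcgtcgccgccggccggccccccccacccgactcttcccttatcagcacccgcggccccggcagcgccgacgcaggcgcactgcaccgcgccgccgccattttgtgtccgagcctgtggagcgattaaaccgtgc
Smc1a: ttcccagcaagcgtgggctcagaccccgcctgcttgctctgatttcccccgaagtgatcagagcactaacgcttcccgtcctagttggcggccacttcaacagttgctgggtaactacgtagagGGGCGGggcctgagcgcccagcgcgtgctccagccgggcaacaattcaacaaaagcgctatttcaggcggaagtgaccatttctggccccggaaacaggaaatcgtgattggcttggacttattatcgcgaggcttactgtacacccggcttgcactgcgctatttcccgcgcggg
Smc3: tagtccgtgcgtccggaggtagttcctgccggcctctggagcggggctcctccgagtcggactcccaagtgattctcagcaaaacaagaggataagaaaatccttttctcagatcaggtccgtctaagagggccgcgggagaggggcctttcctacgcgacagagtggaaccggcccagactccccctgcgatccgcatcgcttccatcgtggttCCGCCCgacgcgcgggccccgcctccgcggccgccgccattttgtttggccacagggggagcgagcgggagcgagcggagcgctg
Wapl: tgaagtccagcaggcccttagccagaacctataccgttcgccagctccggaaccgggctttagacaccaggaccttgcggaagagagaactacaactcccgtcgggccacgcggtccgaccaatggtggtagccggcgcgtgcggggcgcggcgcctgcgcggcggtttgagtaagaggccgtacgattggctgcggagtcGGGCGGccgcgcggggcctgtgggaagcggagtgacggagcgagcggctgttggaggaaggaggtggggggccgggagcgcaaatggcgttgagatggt
The start these promoters are built on equals the start in the table for Smc1a and Wapl and lies 2 bp from it for Smc3 and 41 bp from it for Ctcf. It need not be the outer end of the RefSeq gene, which lies 1549 bp from the start in the table for Wapl and 105 bp from it for Ctcf.

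On either strand, GGGCGG stood in 7 of the 7 promoters and in 62.7% of the 11496 promoters of genes in the table. The E2F motif GCGGGAA stood in 3 (Smc1a, Stag1 and Pds5a), against 8.12% of all promoters, and CCAAT in 4 (Smc1a, Stag1, Wapl and Pds5b), against 37.9%. The cell-cycle homology motif TTTGAA stood in 2 (Ctcf and Pds5b, 11.5% of all) and GATGGC, a form of the YY1 motif, in 2 (Ctcf and Stag1, 14.6%). Each motif was searched as an exact string, so other forms of it, for YY1 too, were not counted. The TATA motif TATAAA (7.26%), the ETS motif CCGGAAG (16.9%) and the NRF1 motif GCATGCG (6.25%) stood in 0 of the 7. No match in a member promoter overlapped a match to another of these 8 motifs. The promoters of the members were rich in G and C, with a median of 73.7% (58.3% to 80.3%) against 60.7% over all promoters, and the part of this in the motif counts was not tested. A match is a description of letters and not a site.

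The ring subunits Smc1a and Smc3 had nearly the same profile after release. Smc1a (chromosome X, start of the transcript at 152016428 in GRCm38, plus strand) had a signal of 0.244 in mitosis, 8.66 in early G1, then 5.75 in late G1, against 4.57 in asynchronous cells. Smc3 (chromosome 19, start at 53600398, plus strand) had 1.00, 24.2, 15.8 and 12.7 in the same 4 groups. Both stood at nearly the same share of their asynchronous signal in early G1 (189% for Smc1a and 191% for Smc3) and in late G1 (126% and 124%). They differed in mitosis, where Smc1a kept 5.34% of its asynchronous signal, the lowest share among the members, and Smc3 kept 7.90%, the highest. Rad21, the kleisin that separase cuts at anaphase (chromosome 15, start at 51991747, minus strand), had 1.57 in mitosis, 41.1 in early G1, then 21.8 in late G1, against 24.3 in asynchronous cells. It therefore ended below its asynchronous signal in late G1, at 89.8%, unlike its ring partners.

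Stag1 and Stag2 encode alternative HEAT-repeat subunits, of which a cohesin ring carries either. Stag1 (chromosome 9, start at 100643616, plus strand) had 0.387 in mitosis, 11.6 in early G1, then 9.85 in late G1, against 5.85 in asynchronous cells. Stag2 (chromosome X, start at 42149683, plus strand) had 0.228, 6.73, 3.03 and 3.26 in these groups. The paralogs were alike in early G1, at 199% of the asynchronous signal for Stag1 and 207% for Stag2, and far apart in late G1, at 168% and 93.1%. Late G1 kept 84.8% of the early G1 signal of Stag1, the largest share among the members, and 45.1% of that of Stag2, the smallest. The start of Stag1 in the table lies 45907 bp inside the gene's RefSeq span of 361 kb, so which transcripts the value covers is unclear.

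Nipbl, whose product loads cohesin onto DNA and drives loop extrusion (chromosome 15, start at 8444463, minus strand), had 0.350 in mitosis, 14.6 in early G1, then 7.23 in late G1, against 6.00 in asynchronous cells. It had the largest difference of the members in early G1, 41.8-fold over mitosis and 2.44-fold over asynchronous cells. Late G1 kept 49.4% of its early G1 signal. Its start in the table, too, lies inside the RefSeq span, by 20852 bp. Smaller distances of this kind were 1791 bp for Rad21 and 386 bp for Stag2.

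Wapl encodes the factor that opens the ring and releases cohesin from chromatin (chromosome 14, start at 34673928, plus strand). It had 0.812 in mitosis, 28.7 in early G1, then 14.94 in late G1, against 14.86 in asynchronous cells. From 193% of the asynchronous signal in early G1 it was thus back at 101% in late G1. The PDS5 proteins bind the kleisin, assist WAPL and also support the acetylation that stabilizes cohesin. Pds5a (chromosome 5, start at 65698168, minus strand) had 0.682 in mitosis, 25.01 in early G1, then 15.1 in late G1, against 12.4 in asynchronous cells. Pds5b (chromosome 5, start at 150673827, plus strand) had 0.244, 8.86, 4.99 and 4.22 in the same groups. Unlike the STAG pair, these paralogs stayed close to each other in every group: at 5.49% of the asynchronous signal for Pds5a and 5.77% for Pds5b in mitosis, 201% and 210% in early G1, and 122% and 118% in late G1.

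Ctcf (chromosome 8, start at 105636579, plus strand) had the smallest early G1 excess over asynchronous cells. Its signal was 1.01 in mitosis, 25.3 in early G1, then 19.0 in late G1, against 17.5 in asynchronous cells. Early G1 stood at 144% of asynchronous cells and late G1 at 109%. Agrp, a neuropeptide gene on the other strand whose start lies 814 bp from that of Ctcf, had another profile, 0.802-fold its asynchronous signal in early G1 (0.887 in mitosis, 15.9 in early G1, then 16.7 in late G1, against 19.9 in asynchronous cells). Ribc1, on the other strand 158 bp from the start of Smc1a and overlapping it by 459 bp, had 0.711, 11.8, 8.95 and 8.43 in these groups. The order of the columns was that of Smc1a, with a smaller early G1 excess (1.40-fold its asynchronous signal, against 1.89-fold for Smc1a). No source used here says whether counting used strand, so reads of Smc1a and Ribc1 in their overlap cannot be told apart. No other member had a gene of the table starting within 2000 bp. Protein-coding RefSeq genes outside the table overlap Pds5b by 29304 bp (Gm40353), Nipbl by 10752 bp (LOC102634078) and Rad21 by 2564 bp (Gm52217). Overlaps of members with noncoding genes and pseudogenes are not listed here.

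In mitosis, transcription of the members was near that of the genome as a whole. All 10 were at least 2-fold lower than in asynchronous cells, as were 99.1% of 14444 genes, and 0 were at least 2-fold higher (0.0208% of genes). The members kept 5.34% to 7.90% of their asynchronous signal (median 5.82%, against 5.31% for all genes). On a log2 scale, with 0.1 added to each signal, the median ratio of mitosis to asynchronous cells was -3.76 for the members and -3.89 for all genes. On that scale Stag2 stood highest relative to the median gene, at 0.54, and Wapl lowest, at -0.14. Of the 10, 7 were above the median gene and 3 (Ctcf, Wapl and Pds5a) below it. By share of the asynchronous signal, with nothing added, 10 of 10 were above. That median of 5.31% also keeps genes at 0 in mitosis and genes of low mean signal, which the log2 ratios leave out. Smc1a, at 5.34%, was barely above it. The size of the mitotic difference depends on the authors' scaling: with columns rescaled to equal medians, 0 of the 10 were at least 2-fold lower.

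At the 1 h release the members were further above mitosis than most genes. Early G1 was at least 2-fold higher than mitosis for 10 of 10 members and for 99.3% of 14456 genes, and at least 2-fold lower for 0 of 10, against 0.00692% of genes. The folds of the members ran between 24.1 for Smc3 and 41.8 for Nipbl. Their median log2 ratio was 4.65, against 4.21 for all genes, and each member lay above the median gene, by 0.17 (Stag2) to 0.82 (Nipbl). Nipbl and Pds5a had the highest log2 ratios, at 5.03 and 5.004, higher than those of 90.6% and 89.8% of all genes. The order of the next members depends on the 0.1 added: Wapl was above Pds5b and Smc1a with it (4.98, 4.70 and 4.67), and below them by plain fold (35.3 for Wapl, 36.3 for Pds5b and 35.5 for Smc1a). With equal medians, 0 of the 10 were at least 2-fold higher, and all 10 were again above the median gene, against 7 with a pseudocount of 1.

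Set against asynchronous cells, early G1 transcription of the members was between 1.44-fold (Ctcf) and 2.44-fold (Nipbl) higher. The median log2 ratio was 0.96, a 1.95-fold difference, against 0.30 for all genes. At least 2-fold higher were 4 of 10 (Pds5a, Stag2, Pds5b and Nipbl), against 17.7% of 14661 genes, and 0 of 10 were at least 2-fold lower, against 9.53%. That count hangs on the threshold, since Pds5a stood at 2.01-fold and Stag1 at 1.99-fold, and 9 of 10 were past 1.5-fold. The share of all genes past 1.5-fold is not reported here. All 10 lay above the median gene, by 0.23 (Ctcf) to 0.97 (Nipbl), and they had higher ratios than 60.8% to 90.4% of all genes. Rescaling to equal medians moved the median of all genes to -0.015 and that of the members to 0.64. Then 0 of 10 were past 2-fold, while all 10 were still above asynchronous cells, by 0.21 to 0.95 on the log2 scale.

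**Figure D2:**
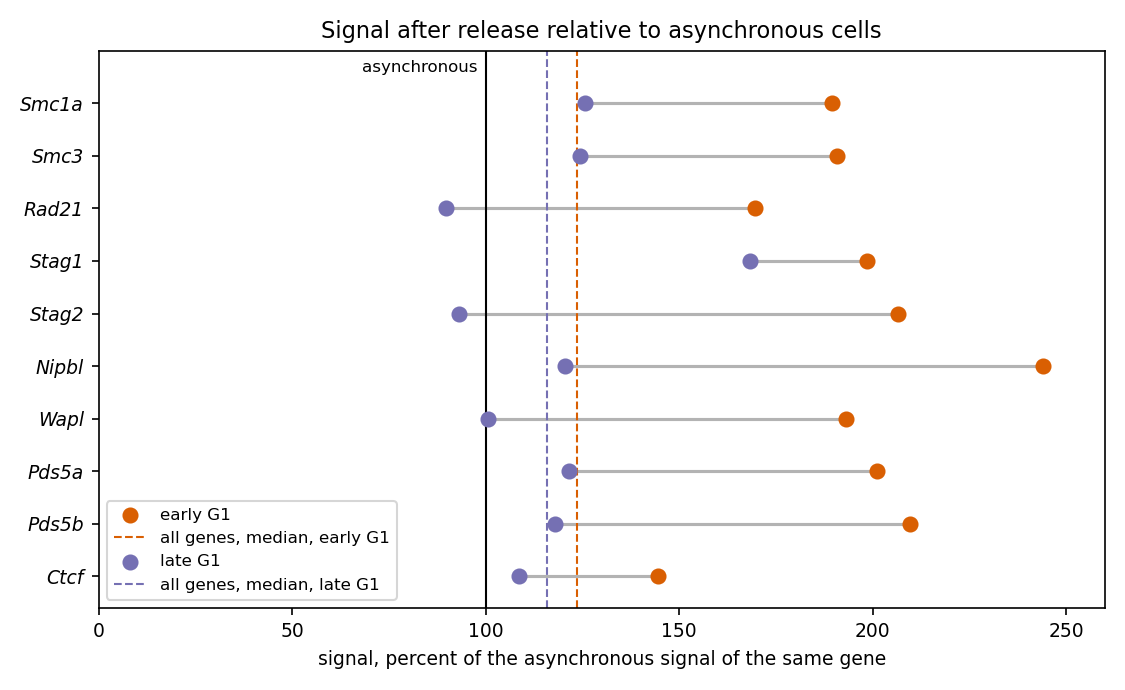
Signal of each member in early G1 (orange) and late G1 (purple) as a percentage of its own asynchronous signal (horizontal axis; solid line at 100), with dashed lines at the all-gene medians, 123.5% for early G1 and 115.8% for late G1. The orange points run from 144% for Ctcf to 244% for Nipbl, all right of the dashed orange line, and the purple points spread around the dashed purple line, with Stag1 alone at 168%.

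All 10 members were lower at the 3 h than at the 1 h release. Late G1 kept 45.1% to 84.8% of the early G1 signal (median 58.4%, against 94.5% for all genes), and the median log2 ratio of late to early G1 was -0.77 for the members and -0.08 for all genes. At least 2-fold lower were 2 of 10, Stag2 (log2 ratio of -1.12) and Nipbl (-1.01), against 7.52% of 14699 genes, and 0 of 10 were at least 2-fold higher, against 15.1%. Every member lay below the median gene, from -0.15 for Stag1 to -1.04 for Stag2, and 0 of 10 lay above it under the other settings tried. Stag2, Nipbl, Wapl and Rad21 had ratios below those of most genes, with 5.12%, 7.31%, 9.08% and 9.91% of genes lower, and Stag1 and Ctcf the highest ratios of the members. The ratios of late to early G1 and of early G1 to asynchronous cells share the early G1 column.

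Late G1 then stood close to asynchronous cells. The members' ratios ran between 0.898-fold (Rad21) and 1.68-fold (Stag1), with a median log2 ratio of 0.25, against 0.21 for all genes. None of the 10 was at least 2-fold higher, against 16.9% of 14695 genes, and none at least 2-fold lower, against 5.14%. Of the 10, 8 lay above asynchronous cells and 2, Rad21 and Stag2, below, against 9177 of 14695 genes above and 5518 below. With equal medians 6 lay above, since Ctcf (-0.09) and Wapl (-0.20) turned below. The median was then 0.047 for the members and 0.005 for all genes. With quantile normalization 4 lay above, with a median of -0.035 for the members and -0.045 for all genes. Expressed as a share of the early G1 excess over asynchronous cells, late G1 kept 69.4% for Stag1, 28.8% for Smc1a, 26.9% for Smc3, 21.4% for Pds5a, 19.3% for Ctcf, 16.4% for Pds5b, 14.3% for Nipbl and 0.57% for Wapl, and the value was negative for Rad21 (-14.7%) and Stag2 (-6.49%).

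**Figure D3:**
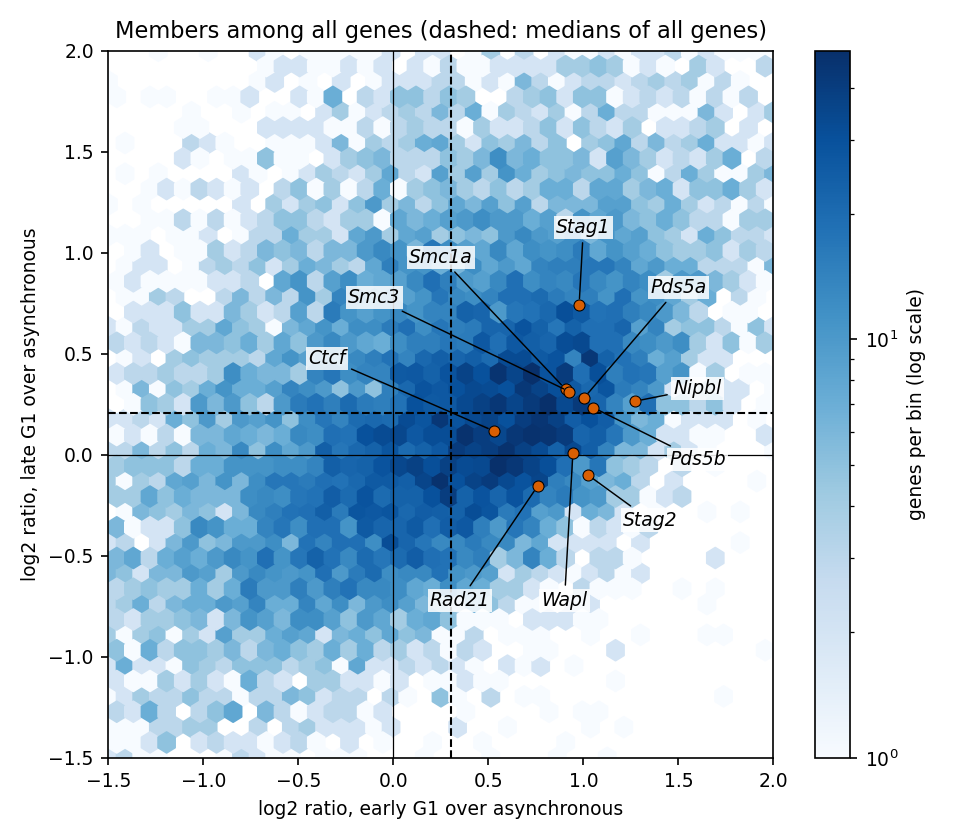
Log2 ratio of early G1 over asynchronous cells (horizontal) and of late G1 over asynchronous cells (vertical) for all genes (hexagons, darker for more genes per bin, log colour scale) and the 10 members (orange points); dashed lines mark the medians of all genes, and 1650 of 14631 genes lie outside the window. The members sit right of the vertical dashed line, between 0.53 and 1.27, and around the horizontal one, with Stag1 highest at 0.74 and Rad21 lowest at -0.15.

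By likeness of profile, measured as the distance between log2 signals centred on each gene's mean over the 4 columns, the genes nearest to Ctcf among 7025 candidates were Pank2 (distance 0.029), Ino80 (0.041), Cbx7 (0.041) and Serbp1 (0.059). Pank2 had 0.976 in mitosis, 24.6 in early G1, then 18.4 in late G1, against 17.3 in asynchronous cells. Nearest to Rad21 were Man1b1 (0.034), Mtmr12 (0.048), Sertad2 (0.050) and Mrpl50 (0.053). Among the members, the closest to Ctcf was Smc1a (0.27), and the closest to Rad21 were Wapl (0.28) and Pds5b (0.29). The nearest of 7025 genes are likely to lie closer than the nearest of a few. These distances therefore do not rank the members against other genes. The distances are a description over 4 columns.

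The other genes of the pathway did not share 1 profile. Of 17 partners of cohesin listed, 16 were in the table (Rad21l was not). Their median log2 ratio of early G1 to asynchronous cells was -0.13, against 0.96 for the members and 0.30 for all genes, with 0 of 16 at least 2-fold higher (17.7% of all genes) and 3 (Cdca5, Espl1 and Ddx11) at least 2-fold lower (9.53% of all genes). In late G1 the median was -0.44, again with 0 higher (16.9%) and 3 lower (Cdca5, Sgo2a and Ddx11, against 5.14%). Of the 16, 5 were in the class Early_Spike, near the share of the table (33.6%), and 6 were in the class Gradual (15.4%).

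Mau2, the partner of NIPBL in the loader, differed from Nipbl: it had 0.730 in mitosis, 19.1 in early G1, then 20.5 in late G1, against 18.8 in asynchronous cells, so early G1 stood at 101% of asynchronous cells for Mau2 and at 244% for Nipbl. The acetyltransferase gene Esco1, whose product modifies SMC3 in interphase, was like the members, with 0.278, 11.3, 6.27 and 6.11. Esco2, the acetyltransferase of S phase, had 6.98 in mitosis, 12.3 in early G1, then 5.54 in late G1, against 8.62 in asynchronous cells. It kept 80.9% of its asynchronous signal in mitosis, a ratio above 99.7% of all genes. Hdac8, which removes the acetyl mark, had 0.161, 1.92, 2.501 and 1.61 in the 4 groups. The noncoding RNA gene Gm32262, outside the table, overlaps Hdac8 by 208974 bp.

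Several partners guard or cut cohesin at the metaphase to anaphase transition. Cdca5 encodes sororin, which counters WAPL on replicated chromatids, and had 2.37 in mitosis, 26.9 in early G1, then 27.0 in late G1, against 57.8 in asynchronous cells. Its start lies 56 bp from that of Zfpl1 on the other strand, which likewise stood at 0.436-fold its asynchronous signal in early G1. Espl1, the separase gene, had 0.739, 8.71, 11.2 and 21.5, and Pttg1, the gene of its inhibitor securin, 1.09, 13.0, 13.2 and 21.6. The shugoshin genes, whose products protect centromeric cohesin, had 1.15, 36.4, 21.9 and 42.6 (Sgo1) and 0.568, 7.75, 3.88 and 12.6 (Sgo2a). All 5 stood below asynchronous cells in both releases, at 40.5% to 85.4% in early G1 and 30.9% to 61.3% in late G1, as did 5317 of 14661 genes in early G1 and 5518 of 14695 in late G1.

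Among genes tied to cohesion at the replication fork, the helicase gene Ddx11 had 0.821 in mitosis, 8.16 in early G1, then 5.45 in late G1, against 18.0 in asynchronous cells. The genes of the alternative clamp loader were split, with Chtf18 at 0.842, 16.9, 16.9 and 26.0, Dscc1 at 0.180, 4.99, 4.27 and 5.10, and Chtf8 at 2.92, 64.3, 42.1 and 44.6. Relative to asynchronous cells, early G1 stood at 45.3% for Ddx11, 65.1% for Chtf18, 97.7% for Dscc1 and 144% for Chtf8. The protein-coding gene Derpc, outside the table, overlaps Chtf8 over its whole RefSeq length of 9731 bp.

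Genes named for meiotic cohesin also had signal. Rec8, the meiotic kleisin, had 1.63 in mitosis, 64.1 in early G1, then 42.9 in late G1, against 36.1 in asynchronous cells, and Stag3 0.715, 23.6, 21.0 and 12.0. Both were in the class Early_Spike with the members. Smc1b had 0.294, 3.33, 6.80 and 3.89, highest in late G1, and it overlaps Fam118a by 52892 bp in the RefSeq annotation. Stag3 overlaps Gpc2 by 6370 bp, on the other strand. The start of Stag3 in the table (138280544) lies inside its RefSeq span, which begins at 138272514. The same holds for Sgo2a (57995971, with a span from 57985340). Beyond Zfpl1, genes starting within 2000 bp of a partner were mixed in early G1 relative to asynchronous cells. Rpusd1 (0.272-fold, beside Chtf18 at 0.651) and Utp4 (1.62-fold, beside Chtf8 at 1.44) went the same way as the partner. Sugp1 (1.90-fold) stood above Mau2 (1.01-fold) and Ribc2 (2.66-fold) above Smc1b (0.856-fold). Gpc2 (0.943-fold) and Gm43720 (0.987-fold) stood below Stag3 (1.96-fold).

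Of 10 other factors of genome architecture, 6 were in the class Early_Spike (33.6% of all genes) and 7 were highest in early G1 (44.6%). Their median log2 ratio of early G1 to asynchronous cells was 0.76, with 1 of 10 at least 2-fold higher (Vezf1, against 17.7% of all genes). Their median log2 ratio of late G1 to early G1 was -0.60, with Yy1, Vezf1 and Chd8 among those at least 2-fold lower (7.52% of all genes). Yy1, a zinc finger factor found at promoter contacts, had 2.56 in mitosis, 63.7 in early G1, then 31.5 in late G1, against 35.1 in asynchronous cells. Chd8, a chromatin remodeller gene, had 1.43, 39.1, 16.6 and 21.4. Ldb1, a gene of a looping cofactor, had 1.32, 46.2, 35.2 and 34.4. Of the zinc finger genes Patz1 and Maz, Patz1 had 3.32, 79.1, 49.7 and 75.2, close to asynchronous cells in early G1, and Maz 2.55, 62.5, 49.7 and 121, below them in both releases.

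Condensin and the SMC5/6 complex are the other SMC rings. Of their 14 genes 10 were highest in early G1 (44.6% of all genes) and 5 were in the class Early_Spike, near the share of the table (33.6%). The median log2 ratio of early G1 to asynchronous cells was 0.48, between that of the members (0.96) and that of all genes (0.30), and 0 of 14 were at least 2-fold higher (17.7% of all genes) or lower (9.53%). Smc5 had 0.562 in mitosis, 16.1 in early G1, then 9.37 in late G1, against 8.95 in asynchronous cells, and Ncapd3 0.471, 20.4, 12.0 and 10.3. Both had the order of columns of most members (28.8% of genes). The genes named here have the list's largest ratios of early G1 to mitosis, so a high early G1 follows from the choice. Others differed: Ncapd2 was at 0.640-fold its asynchronous signal in early G1, and Ncaph, Ncaph2 and Nsmce2 were higher in late than in early G1. Smc2, an ATPase of condensin, had 0.584, 16.6, 9.27 and 11.3, Ncapg2 0.387, 11.4, 7.66 and 6.87, Nsmce1 0.336, 13.4, 12.6 and 9.23, and Nsmce3 1.47, 36.1, 30.5 and 29.0.

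Relative to asynchronous cells, the 16 genes of G2 and mitosis ran against the members. Early G1 was at least 2-fold lower than asynchronous cells for 11 of 16 (9.53% of all genes) and late G1 for 14 of 16 (5.14%), with median log2 ratios of -1.46 and -1.85 and none highest in early G1. All 16 had more signal in early G1 than in mitosis, as did the members and 14432 of 14456 genes. Of the 16, 12 had less in late than in early G1, as did 7911 of 14699 genes. Plk1, the mitotic kinase gene, stood at 7.17 in early G1, then 5.38 in late G1, against 51.1 in asynchronous cells, and Bub1, a spindle checkpoint gene, at 5.50, 2.52 and 8.89. Top2a stood at 6.48, 12.5 and 76.3, Cdk1 at 25.2, 24.1 and 69.35, Cdc20 at 24.3, 18.55 and 67.6, and Aurka at 21.2, 13.6 and 48.7 in these groups. Cdca5, Espl1, Pttg1, Sgo2a, Ddx11 and Chtf18, of the partners above, were with 15 of these 16 in the class Gradual.

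**Figure D4:**
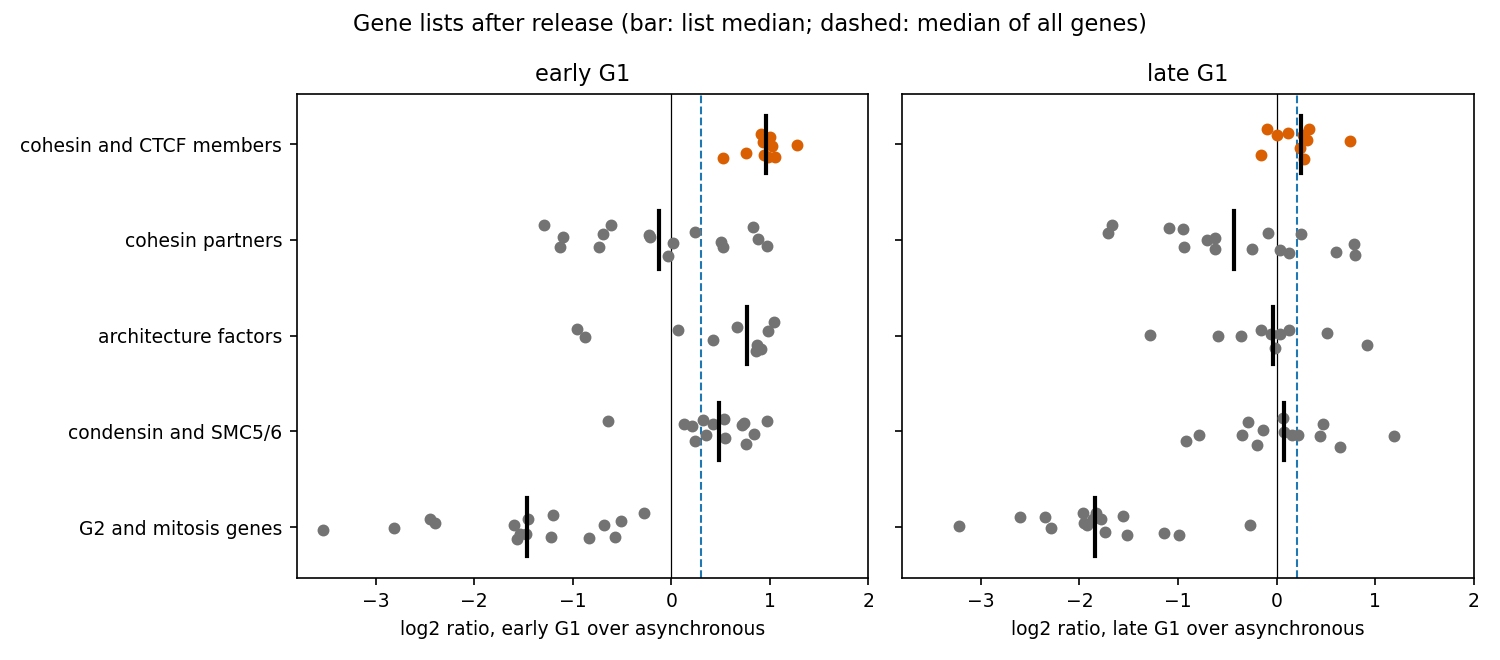
Log2 ratio over asynchronous cells (horizontal axes) in early G1 (left) and late G1 (right) for each gene of 5 lists (points, spread vertically for visibility); bars mark list medians and the dashed line the median of all genes. In early G1 the 10 members sit between 0.53 and 1.27 around a median of 0.96, the partners have a median of -0.13 and the G2 and mitosis genes one of -1.46, while in late G1 the members have a median of 0.25.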

How the data were processed

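PRO-seq signal was analysed for 4 groups of mouse induced pluripotent stem cells with 2 libraries each, per the labels. The deposited values are a signal per gene, called normalized by the authors, in 1 column per group, per the file headers. The table's temporal classes are text labels of another kind, also deposited. The submitters' processing notes name Bowtie2, cutadapt, SAMtools and Picard, with the mouse build GRCm38 (mm10). No source used here gives versions, counting, strand use, combining or scaling, nor whether signals are per length. Levels were therefore not compared between genes, except in the marker sums and medians and in cutoffs on mean signal. The start column equals the outer RefSeq gene start at 1810 genes and was taken as 1-based.

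Ratios are log2 of (signal + 0.1), which understates the change of low genes. A mean signal of at least 0.5 was required (14814 genes kept, all members among them), and a gene at 0 in a column was left out of ratios with it. Counts use a 2-fold threshold. Percentages and folds of single genes carry no pseudocount. With 1 column per group no test could be run. The counting step was tested on simulated data. Members and lists were chosen with earlier results of these data known, and no list has a test. Every partner of cohesin is named, and of the other lists the 6 genes with the largest absolute log2 ratio in any comparison, of which 1 is not reported here. Vezf1 and neighbours of partners were named after their values were seen. Nearest profiles were sought among genes at or above the median mean signal without predicted names. Python 3.11.15, pandas 2.3.3, numpy 2.4.6 and matplotlib 3.10.9 were used.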

Additional observations from a re-analysis of the deposited data

How the results depend on the processing

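The alternatives were other pseudocounts, filters, scalings of the columns, a lower fold and a shorter promoter window. Relative to the median gene, no ratio of a member moved by more than 1.5-fold under any of them. Early G1 was above asynchronous cells, and late G1 below early G1, for all 10 members in each. Scaling decides the comparisons with mitosis. Against asynchronous cells the members' median log2 ratio turned to 0.16 with equal medians, 0.092 with equal totals and 0.18 with quantile normalization, with 0 of 10 at least 2-fold lower in each, and that of all genes to 0.047 with equal medians and 0.023 with quantile normalization. For early G1 against mitosis the members' median became 0.43, 0.60 and 0.45, with 0 of 10 at least 2-fold higher in each, and that of all genes turned to -0.067 with equal medians. With pseudocounts of 0.5 and 1 the members' median in mitosis against asynchronous cells became -3.03 and -2.57, and with 1 that of early G1 against mitosis became 3.59. The members past 2-fold in early G1 over asynchronous cells numbered 1 with pseudocounts of 0.5 and 1 and with equal totals, and 0 with equal medians and quantile normalization. Members at least 2-fold lower in late than in early G1 numbered 1 with a pseudocount of 0.5, equal medians and quantile normalization, and 0 with a pseudocount of 1 and equal totals. At 1.5-fold these counts were 9 and 7, and 1 member (Stag1) was higher in late G1 than in asynchronous cells. The shares of all genes at 1.5-fold are not reported here. With 150 bases before the start, TTTGAA and GATGGC each stood in 1 member promoter. No paired analysis was possible because the columns carry no replicate, and for the same reason no replicate could be left out. The depth is unknown, so small differences between members have no known error.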
